A study of Mus musculus with 18 samples.

Results

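The 3-day reloading response was measured in 6 of the 18 libraries of the series: 3 from flox/flox mice reloaded for 3 days and 3 from flox/flox mice unloaded for 10 days, chosen by their titles. All 17833 genes that passed the expression filter, of 54532 counted, were compared between the 2 groups. The series sequenced polyadenylated RNA from the gastrocnemius, the large calf muscle, of female C57BL/6 mice by stranded RNA-seq, with 3 libraries in each of 6 groups. The groups cross genotype (flox/flox, or a skeletal muscle knockout of the zinc finger gene Zfp697, labelled mKO) with condition: conventional cages throughout, hindlimb unloading for 10 days, or unloading followed by reloading for 3 days. The flox/flox mice carry the floxed allele of Zfp697 in every library compared here, so both groups share it. The animals' age, the driver of the deletion and whether flox/flox mice carried a Cre transgene are not given in the sources used here. Nothing states that the replicates are separate animals, so p-values measure the spread between these libraries, which may be technical.

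Hindlimb unloading lifts the weight from the hind legs, and the calf muscles lose mass while fibre proteins are degraded by the ubiquitin ligase and autophagy routes. When weight bearing returns, weakened fibres are strained, membranes tear, immune cells enter, and fibroblasts and satellite cells proliferate and lay down matrix. Reloading is used as a model of muscle regrowth and of sterile injury.

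Zfp697, a zinc finger protein gene at chr3:98382461-98753812 on the plus strand (GRCm38.p6), was counted at 1.58, 1.74 and 1.61 CPM (counts scaled to library size) in the flox unloading libraries. In the flox reloading libraries it was at 2.79, 2.33 and 2.57 CPM, above every unloading library. The log2 fold change was 0.64 ± 0.25 (SE), with an adjusted p of 0.0574 in edgeR's quasi-likelihood test, so the gene was not called. Its adjusted p was 0.0355 with total-count scaling and 0.0244 in a model of only the 2 flox groups, but 0.0518 in DESeq2, 0.0712 with a replicate block and 0.0785 to 0.144 with 1 flox library left out. In the libraries labelled mKO the gene was still counted, at 1.05 to 1.31 CPM in cage controls, 1.09 to 2.47 CPM after unloading and 1.47 to 1.95 CPM after reloading. Cage controls labelled flox held 0.984 to 1.6 CPM, so whole-gene counts did not separate the genotypes there. The part of the gene removed in mKO mice is not given in the sources used here, and these counts do not check the labels.

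The 18 libraries held 45069595 to 51592566 assigned counts, and the 6 compared here 45069595 to 50131547. Myh4, Acta1, Atp2a1 and Tnnt3, which encode fast myosin, skeletal actin, the calcium pump SERCA1 and fast troponin T, were among the 10 most abundant genes tested in flox unloading. The TMM scaling factor was 1.083 ± 0.0159 (SD, n = 3) in flox reloading and 1.003 ± 0.0248 in flox unloading. Genes of the mitochondrial genome took 8.43 ± 0.151% of counts after reloading and 9.75 ± 0.439% after unloading. In a whole muscle, more cells of a type and more RNA per cell cannot be told apart for any gene below.

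At an adjusted p under 0.05, 3032 genes (17% of those tested) were higher and 2660 (14.9%) were lower after reloading. The 2 directions differed in size. The median log2 fold change was 0.76 among the genes that rose and -0.49 among those that fell. At least 2-fold changes numbered 1058 up and 393 down, and at least 8-fold changes 130 up and 18 down. Genes that rose held 10.6% of all CPM after unloading and 19.2% after reloading, and genes that fell went from 40.0% to 29.8%. With total-count scaling in place of TMM, 71.8% of calls were higher rather than 53.3%, and the median of all tested genes moved from 0.0042 to 0.114. The plot of change against level shows this asymmetry in size.

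**Figure D1:**
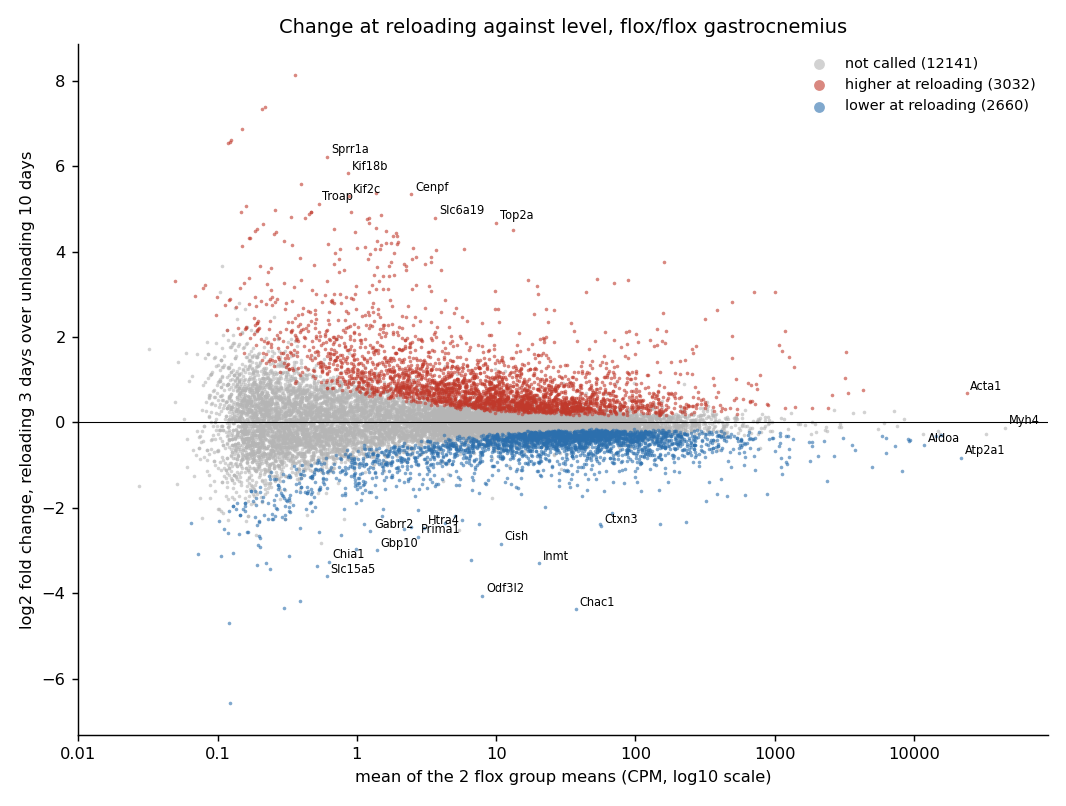
Log2 fold change (reloading over unloading, flox) against the mean CPM of the 2 groups on a log10 scale, 1 point per gene tested; red points (3032) were called higher, blue (2660) lower and grey not called. Large rises such as Top2a and Cenpf sit near or below 10 CPM, while Atp2a1 and Aldoa, at 9258 CPM or more in each of the 6 libraries, were lower.

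The largest rise among genes above 1 CPM in a group and with separate group ranges was that of Sprr1a, a small proline-rich protein of cornified skin that stressed and injured cells also make. It had 2 counts over the 3 unloading libraries and 188 over the 3 reloading libraries, a ratio of 88.4 with a counting interval of 24.1 to 735. Its reloading libraries stood at 1.20, 1.13 and 1.30 CPM. Of the 12 largest rises, 10 were genes of the dividing cell: Kif18b, Cenpf, Kif2c, Troap, Melk, Ccnb2, Cep55, Bub1, Pimreg and Top2a, with log2 fold changes from 4.67 (Top2a) to 5.83 (Kif18b). The last was Slc6a19, a sodium-coupled carrier of neutral amino acids best known from gut and kidney. Slc6a19 was at 0.123, 0.434 and 0.204 CPM after unloading and at 6.71, 8.60 and 5.86 CPM after reloading, a log2 fold change of 4.78 ± 0.52 (edgeR adjusted p = 3.28e-06). Cage controls held 0.0584 CPM of it on average, so the reloaded muscle stood above both other flox groups. Kif18b and Troap had counts in unloading library 3 alone of the unloading group. Without unloading library 3, Kif18b and Troap were at 0 counts in the unloading group and, against a floor of 3 counts over that group, at least 55-fold and 33.5-fold higher after reloading. Kif2c, Melk, Bub1 and Pimreg then kept 2 counts each, with ratios of 83.1 (counting interval 22.8 to 690), 84.3 (23.1 to 700), 111 (30.4 to 916) and 113 (31.2 to 940), and the log2 fold change of Cenpf was 6.01. Without unloading library 2, Sprr1a was at 0 counts there and at least 39.4-fold higher after reloading, and the log2 fold change of Slc6a19 was 5.40.

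Among the 12 largest falls, Chac1, which degrades glutathione, fell from 89.5, 85.8 and 39.8 CPM to 2.2, 5 and 3.1 CPM, a log2 fold change of -4.38 ± 0.54 (edgeR adjusted p = 1.10e-05). Odf3l2, a relative of a sperm tail protein, went from 11.7, 14.6 and 18.8 CPM to 0.653, 0.408 and 1.63 CPM. Inmt, which methylates tryptamine and other indoles, went from 39.2, 35.4 and 35.6 CPM to 2.63, 2.76 and 5.81 CPM. For these 3 genes the cage control mean lay between the means of the 2 groups, at 41.8 CPM for Chac1, 2.59 CPM for Odf3l2 and 16.4 CPM for Inmt. Ctxn3, a small membrane protein, fell by 2.44 ± 0.32 from 147, 71.2 and 68.4 CPM, and Cish, a feedback inhibitor of cytokine signalling through STAT5, fell by 2.85 ± 0.70 from 22.5, 29.6 and 4.88 CPM. The Cish unloading libraries spread widely, with library 3 close to the reloading range of 1.95 to 3.39 CPM. The remaining 7 were Slc15a5, Chia1, Gbp10, Mrgprg, Prima1 (the membrane anchor of acetylcholinesterase), Gabrr2 and Htra4, with log2 fold changes from -3.60 (Slc15a5) to -2.47 (Htra4). The values of 3 of the 12 genes rested partly on 1 library. Without unloading library 3, Mrgprg was not called (adjusted p = 0.0518) and Slc15a5 stood at -2.88, while without reloading library 3 Odf3l2 stood at -4.83, Slc15a5 at -4.76 and Mrgprg at -4.47.

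Genes of mitosis rose almost as a block. Of 40 listed, 38 rose and 1 fell, where 17% and 14.9% of all tested genes did, with a median log2 fold change of 3.25, beside 0.0042 over all genes tested. These are the shares and the median to set beside the count of each list that follows. Each such count is out of the list's members that passed the expression filter. The lists and their members were chosen with earlier results of these data known. Their counts therefore describe the lists and do not test them. Top2a, which untangles replicated DNA, was at 0.659, 0.476 and 1.12 CPM after unloading and at 20.9, 22.1 and 14.7 CPM after reloading. Mki67, the proliferation antigen Ki-67, was at 0.453, 0.434 and 2.43 CPM and then at 29.3, 26.3 and 20.2 CPM, a log2 fold change of 4.51 ± 0.42 (edgeR adjusted p = 7.13e-07; 5.82 without unloading library 3). Unloading library 3 was the highest and reloading library 3 the lowest of their groups for Mki67, and the groups were still far apart. Plk1, a kinase that drives mitotic entry, rose by 2.80 ± 0.37, from a highest unloading value of 0.449 CPM to a lowest reloading value of 1.86 CPM. The member that fell was Pttg1, the separase inhibitor securin, from 42.5, 47.2 and 44.1 CPM to 28.8, 29.3 and 29.5 CPM. Tpx2, a spindle assembly factor, was the 1 member not called (log2 fold change 0.48); it is named after its values were seen.

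Genes of DNA replication and the G1 to S transition moved less far: 24 of 38 rose, 1 fell, and the median was 0.67. Ccnd1, cyclin D1, was at 3.19, 4.01 and 3.06 CPM after unloading and at 19.5, 17.9 and 15.2 CPM after reloading, a log2 fold change of 2.35 ± 0.16 (edgeR adjusted p = 6.18e-08). Uhrf1, which carries DNA methylation through replication, rose by 3.88 ± 0.33 and Ccna2, cyclin A2, by 3.77 ± 0.28. Pcna, the replication clamp, rose from 21.1, 20 and 23.2 CPM to 29.6, 30.0 and 27.9 CPM, and Mcm2, a helicase subunit, from 8.81, 10.8 and 9.3 CPM to 17.2, 15.2 and 14.6 CPM. Neither gene's groups overlapped. The fall of Rpa2, a single-strand DNA binding subunit, was small (-0.27 ± 0.10) and was lost without each of 5 of the 6 libraries (adjusted p from 0.062 to 0.179). In the nucleotide list 9 of 31 rose and 4 fell, led by Rrm2, the inducible subunit of ribonucleotide reductase (2 ± 0.23), and Tyms, thymidylate synthase (1.72 ± 0.24), while Pfas of purine synthesis fell by 0.57 ± 0.12. Among cell cycle brakes and p53 targets 4 of 21 rose and 7 fell. Gadd45b, a stress-induced regulator of growth arrest, fell by 1.99 ± 0.24 from 40.2, 36.7 and 30.8 CPM to 9.26, 8.24 and 9.58 CPM, and Gadd45a fell by 0.97 ± 0.11, while Cdkn1a, the inhibitor p21, had -0.47 ± 0.24 and was not called.

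Many mitotic genes share promoter elements, and 4 windows are printed because these genes moved together and carry both. The CCAAT box (CCAAT, or ATTGG on the other strand) and the cell cycle homology region (TTTGAA, or TTCAAA on the other strand) were searched on both strands in 300 bases around the start site, 250 before and 50 after, in RefSeq promoters of GRCm38.p6. Of the 39 called mitosis genes, 34 had a promoter in the table, 36 promoters in all. A CCAAT box was found in 75.0% of these and in 37.4% of all 32851 promoters. The cell cycle homology region was found in 72.2% against 17.9%, and both together in 63.9% against 6.95%. Over the 15452 promoters of tested genes, these shares were 37.2% for the CCAAT box, 12.4% for the homology region and 5.07% for both. Each window below holds the 120 bases before the start site, 5′ to 3′ on the gene's strand, with both elements in capitals; they do not overlap each other. The genes are Cdk1, the mitotic kinase, at chr10:69352913-69353032 (minus), Top2a at chr11:99024190-99024309 (minus), Cdc20, an activator of the anaphase-promoting complex, at chr4:118437344-118437463 (minus), and Ube2c, its ubiquitin-conjugating enzyme, at chr2:164769809-164769928 (plus); they were chosen after their values were seen.
Cdk1: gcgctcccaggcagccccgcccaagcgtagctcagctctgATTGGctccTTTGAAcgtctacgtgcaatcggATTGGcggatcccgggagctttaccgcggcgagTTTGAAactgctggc
Top2a: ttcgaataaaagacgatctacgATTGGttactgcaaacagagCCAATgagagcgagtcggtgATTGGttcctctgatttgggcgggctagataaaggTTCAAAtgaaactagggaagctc
Cdc20: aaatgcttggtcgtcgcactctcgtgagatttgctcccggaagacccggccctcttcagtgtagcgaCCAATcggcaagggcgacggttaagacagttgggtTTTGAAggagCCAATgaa
Ube2c: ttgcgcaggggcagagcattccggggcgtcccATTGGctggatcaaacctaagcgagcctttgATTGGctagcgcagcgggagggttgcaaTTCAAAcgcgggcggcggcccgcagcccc
Top2a has 3 CCAAT boxes in this window and the others 2 each, and Cdk1 has 2 cell cycle homology regions where the others have 1. The 4 windows were picked because they hold both elements, and the shares above are for 300 bases. Most 120-base windows of the called mitosis genes did not hold both elements. Some held neither, among them those of Nuf2, Birc5 and Ndc80, which were also called. A match is a description of the letters and does not show that a factor was bound. The log2 fold changes of these 4 genes were 4.08 for Cdk1, 4.67 for Top2a, 4.22 for Cdc20 and 1.10 for Ube2c, a wide range for windows that all hold both elements.

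Of 22 collagen genes 15 rose and none fell, where 17% and 14.9% of all tested genes did, and the median was 1.31. Col3a1, of the reticular collagen III, went from 121, 162 and 176 CPM to 1179, 1559 and 1060 CPM, and Col1a1, of the main fibrillar collagen I, from 84.5, 99.1 and 139 CPM to 501, 902 and 590 CPM. The log2 fold changes were 3.05 ± 0.27 and 2.63 ± 0.32 (edgeR adjusted p = 4.08e-07 and 8.50e-06). Reloading library 2 was the highest of its group for both. Cage controls held 347 CPM of Col3a1 and 420 CPM of Col1a1, above the unloading and below the reloading group, so part of each rise ran from a level that was lower after unloading. Col22a1, made at the junction of muscle and tendon, had -0.33 ± 0.19 and was not called.

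Basement membrane and matricellular genes moved with them. In the basement membrane list 13 of 21 rose and 1 fell (median 0.70), led by Col15a1 (1.92 ± 0.19) and Col4a1 (1.80 ± 0.19), while Col4a3, of a different collagen IV network, fell by 0.71 ± 0.19 and Lama2, the laminin chain that anchors muscle fibres, had -0.06 ± 0.10. Among matricellular and other matrix genes 18 of 27 rose and 1 fell (median 1.13). Postn, periostin, rose from 11.6, 19.4 and 35 CPM to 271, 354 and 268 CPM, a log2 fold change of 3.76 ± 0.32 (edgeR adjusted p = 3.28e-07), and Fn1, fibronectin, rose by 1.71 ± 0.22. Dcn, decorin, a small proteoglycan that binds collagen, had -0.40 ± 0.13, a fall that was lost without any of 4 single libraries (adjusted p up to 0.139).

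The enzymes that fold, process and cross-link collagen rose in 21 of 26 cases, with 1 fall and a median of 0.92. Serpinh1, the collagen chaperone HSP47, went from 42.3, 49.0 and 40.8 CPM to 165, 187 and 138 CPM, a log2 fold change of 1.89 ± 0.15 (edgeR adjusted p = 1.70e-07). Loxl2 and Lox, which cross-link collagen, rose by 1.95 ± 0.21 and 1.72 ± 0.22, and P4ha3, a prolyl hydroxylase subunit, by 2.83 ± 0.47 from under 0.25 CPM in each unloading library. Pcolce2, an enhancer of procollagen processing, fell by 0.69 ± 0.16. Both cross-linking enzymes had separate group ranges. Among proteases and their inhibitors 15 of 26 rose and 3 fell. Adamts4, an aggrecan-cleaving protease, was at 0.206, 0.103 and 0.184 CPM after unloading and at 4, 4.3 and 0.92 CPM after reloading, with library 3 well under the other two. Timp1, an inhibitor of matrix metalloproteinases, rose by 4.06 ± 0.33 (4.94 without unloading library 3), while Timp4, the inhibitor made by muscle, fell by 1.31 ± 0.33 from 19.7, 22.9 and 21.8 CPM to 11.9, 5.93 and 8.12 CPM. Timp3 had -0.55 ± 0.15 and was not called without reloading library 1 (adjusted p = 0.0571). Adam12, a protease disintegrin of regenerating muscle, rose by 3.57 ± 0.30.

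**Figure D2:**
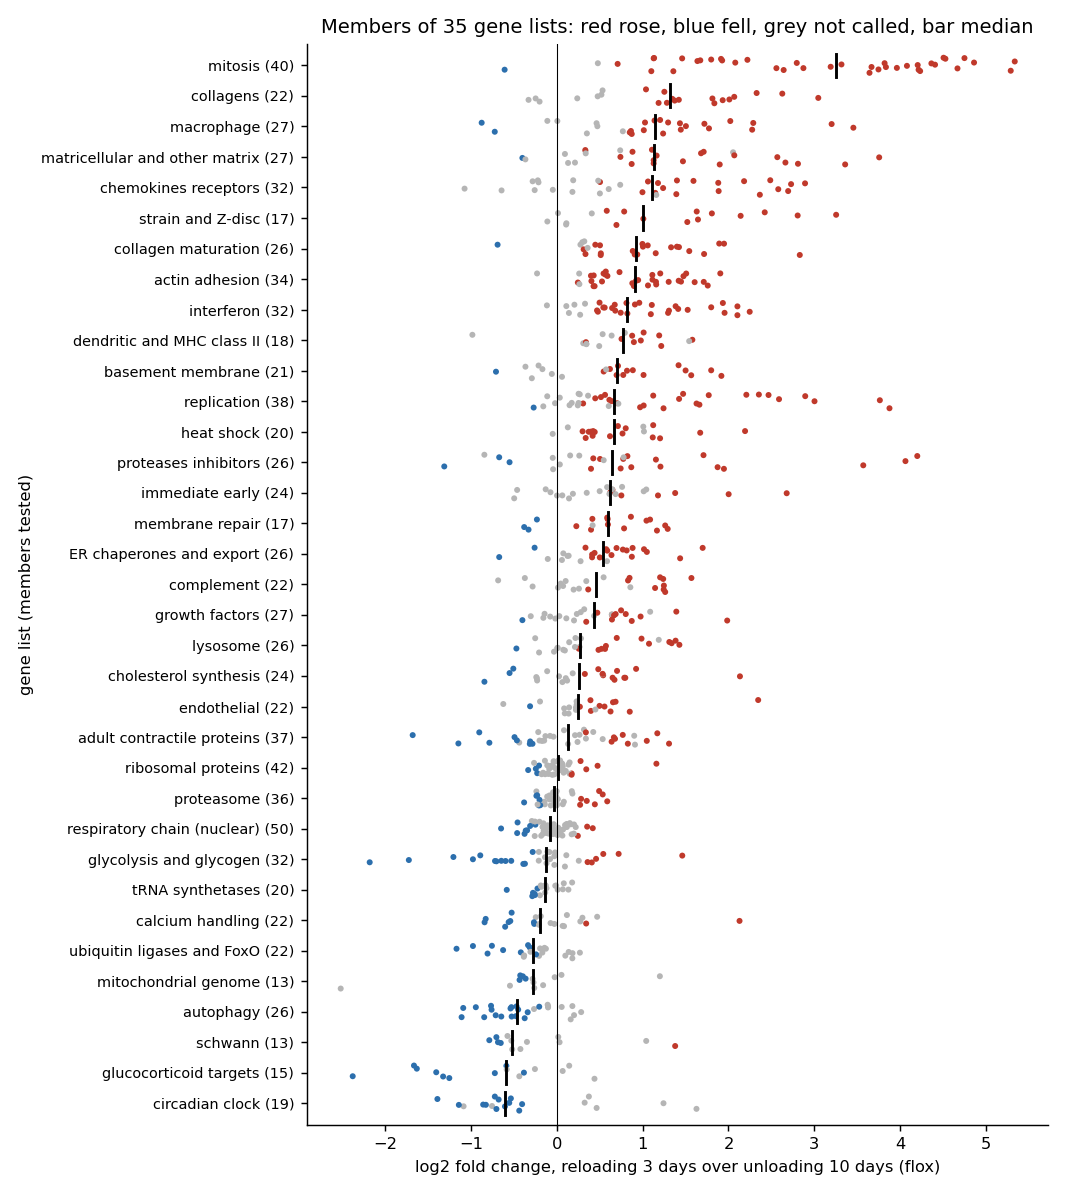
Log2 fold change of each tested member of 35 gene lists (number tested in brackets), ordered by median (black bar); red members rose, blue fell and grey were not called. Mitosis stands apart with a median of 3.25, the matrix and macrophage lists have medians from 0.64 to 1.31, and autophagy, glucocorticoid target and clock genes have medians below 0.

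Macrophage genes rose in 19 of 27 cases and fell in 2, with a median of 1.14. Adgre1, the macrophage marker F4/80, was at 4.28, 3.81 and 5.37 CPM after unloading and at 13.5, 18.6 and 12.3 CPM after reloading, a log2 fold change of 1.72 ± 0.27 (edgeR adjusted p = 9.50e-05). Mrc1, the mannose receptor CD206, rose from 26.7, 24.7 and 26.5 CPM to 69.6, 84.3 and 58.2 CPM, and Lyz2, lysozyme, from 58.3, 51.7 and 70.8 CPM to 115, 153 and 99.9 CPM. Reloading library 2 was again the highest of its group in these 3 genes, and no ranges overlapped. The members did not move as 1 block. Cd68, a lysosomal glycoprotein of macrophages, rose by 3.20 ± 0.28 and Cx3cr1, the fractalkine receptor, by 3.46 ± 0.40, whereas Cd163, the haemoglobin scavenger receptor of resident macrophages, had 0.35 ± 0.20 and was not called. Gpnmb, a glycoprotein of lipid-laden macrophages, fell by 0.88 ± 0.19, from 8.48, 8.40 and 9.91 CPM to 3.14, 5.97 and 5.44 CPM. Cage controls stood close to the unloading group for Adgre1 (5.17 CPM), Mrc1 (27.6 CPM) and Lyz2 (55.6 CPM).

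Genes of antigen presentation and dendritic cells rose in 9 of 18 cases, none fell, and the median was 0.77. H2-Aa, an MHC class II chain, rose by 0.88 ± 0.19 from 20, 18 and 26.7 CPM to 34.1, 47.5 and 37 CPM, and Ciita, which switches on that class, by 1.22 ± 0.27. Complement genes rose in 10 of 22 cases with no fall, led by C1qb (1.57 ± 0.19) and C3ar1, the receptor for the C3a fragment (1.26 ± 0.24), while C3 itself had 0.19 ± 0.26. Lysosomal genes rose in 12 of 26 cases and fell in 1. Gusb, beta-glucuronidase, went from 11.4, 14.7 and 13.8 CPM to 37.3, 40.1 and 29.8 CPM, and Ctss, the cathepsin of antigen-presenting cells, rose by 1.38 ± 0.21, while Ctsl, a cathepsin that muscle raises in atrophy, fell by 0.47 ± 0.10.

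Of 40 listed chemokine, cytokine and receptor genes, 32 passed the expression filter. A gene near the floor can pass it through the group where it is high. Of these 32 genes 18 rose and none fell, with a median of 1.10. Their levels were low. Ccl2, which draws monocytes, was at 0.391, 0.434 and 0.756 CPM after unloading and at 2.94, 2.82 and 1.46 CPM after reloading, and its receptor Ccr2 was at 6.71, 6.89 and 13.3 CPM and then at 20.9, 25.8 and 16.9 CPM. The log2 fold changes were 2.18 ± 0.47 and 1.24 ± 0.26 (edgeR adjusted p = 0.00166 and 0.0013). Il6 rose by 2.89 ± 0.69 but reached only 0.463 CPM in its highest library, and Il1b, by 2.73 ± 0.78, reached the same value, and was not called without reloading library 2 (adjusted p = 0.0529). Without unloading library 3, Il1b kept 3 counts against 52, a ratio of 10.8 (counting interval 3.51 to 54.2). Spp1, osteopontin, had 0.74 ± 0.33 and was not called, with 4.51, 9.49 and 8.09 CPM after reloading.

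Neutrophil, T cell and B cell genes gave no call in edgeR. S100a8 and S100a9, the calprotectin pair of neutrophils, were at 0.165, 0.0414 and 2.72 CPM and at 0.165, 0.0827 and 3.74 CPM after unloading, so that unloading library 3 alone was high. After reloading they were at 0.0185 to 0.345 CPM and at 0.222 to 0.383 CPM. The summed pattern of the neutrophil list followed that library: its mean log2 CPM was -1.90, -2.26 and 0.77 after unloading and -2 to -1.01 after reloading, with 6 of 14 listed genes passing the filter. The part of unloading library 3 in other results was not tested beyond leaving it out. T and NK cell genes were tested in 8 of 20 cases, with Cd3e at 0.797 to 0.951 CPM after unloading and 0.286 to 1.02 CPM after reloading. In the B cell list Ighm, an antibody heavy chain, had -0.37 ± 0.44 and Xbp1, a secretory factor that many cells make, 0.28 ± 0.11, neither called. In the neutrophil, T cell and B cell lists 0 of 6, 0 of 8 and 0 of 12 tested genes were called by edgeR's quasi-likelihood test, with 2, 0 and 1 at an unadjusted p under 0.05 and 1, 0 and 0 called by DESeq2. Leaving out 1 library gave up to 2 calls in the neutrophil list (without unloading library 1 or 2), 1 in the T cell list (without unloading library 2) and 3 in the B cell list (without reloading library 3).

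Interferon-stimulated genes rose in 26 of 32 cases and none fell, with a median of 0.82. With any 1 of the 6 libraries left out, 23 to 26 were called. Mx1, an antiviral GTPase, was at 0.268, 0.372 and 0.286 CPM after unloading and at 1.47, 1.54 and 1.42 CPM after reloading, a log2 fold change of 2.25 ± 0.38 (edgeR adjusted p = 0.000219). Isg15, a ubiquitin-like modifier, went from 0.453, 0.993 and 0.613 CPM to 3.16, 3.30 and 2.41 CPM, and Irf7, a factor that amplifies the response, rose by 0.82 ± 0.19. The groups did not overlap for these 3 genes. A shared promoter element was looked for here too, the interferon-stimulated response element (GAAA, any 2 bases, GAAA, on both strands, where matches may overlap each other). Of the 26 called genes 18 had a promoter in the RefSeq table, 23 promoters in all, and 56.5% of these held a match, against 3.44% of all promoters of that length. Most of the windows of 120 bases before the start held no match, among them those of Irf7, Ifit3 and Oasl2, which also rose. A match does not show that a factor was bound. Isg15 and Ifit1, an inhibitor of viral RNA translation, rose by 2.10 ± 0.27 and 1.09 ± 0.20. They were picked after their matches were seen. Their windows, at chr4:156200819-156200938 (minus) and chr19:34640769-34640888 (plus), are printed with matches in capitals.
Isg15: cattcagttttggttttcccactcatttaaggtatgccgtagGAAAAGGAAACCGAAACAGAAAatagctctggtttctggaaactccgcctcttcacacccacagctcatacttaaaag
Ifit1: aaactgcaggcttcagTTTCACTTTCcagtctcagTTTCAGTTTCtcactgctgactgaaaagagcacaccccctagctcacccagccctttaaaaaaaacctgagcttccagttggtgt
The Isg15 window holds 3 overlapping matches in 1 run and the Ifit1 window 2 separate ones on the other strand.

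Other cell types of the muscle moved less. Endothelial genes rose in 10 of 22 cases and 1 fell, with a median of 0.25. Pecam1 and Cdh5, adhesion molecules of all vessels, rose by 0.50 ± 0.07 and 0.40 ± 0.08. Aplnr, the apelin receptor of sprouting endothelium, rose further, from 6.55, 7.53 and 9.21 CPM to 34.3, 44.2 and 40.0 CPM, a log2 fold change of 2.35 ± 0.16 (edgeR adjusted p = 6.18e-08). Its ligand Apln went from 1.56, 1.32 and 1.21 CPM to 5.41, 7.02 and 3.79 CPM (1.99 ± 0.23). Receptor and ligand thus both had separate group ranges. Among pericyte and smooth muscle genes 3 of 13 rose and 1 fell, with Mcam at 1.06 ± 0.09 and Pdgfrb at -0.06 ± 0.07. Genes of the fibro-adipogenic progenitor rose in 7 of 16 cases and fell in 1. Their defining receptor Pdgfra had -0.03 ± 0.11, at 45.7, 40.9 and 43.3 CPM and then 39.0, 45.5 and 42.4 CPM, while the fibroblast genes Cd248 and Lum rose by 1.58 ± 0.17 and 1.13 ± 0.14. In the tendon list 6 of 14 rose and 1 fell, with Cilp, a cartilage matrix protein, at 1.80 ± 0.31 and the tendon factor Scx, at 0.92 ± 0.29, not called without unloading library 3 or reloading library 1 (adjusted p = 0.109 and 0.127).

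Schwann cell, fat and red cell genes varied between libraries of the same group. Schwann genes rose in 1 of 13 cases and fell in 4 (median -0.52), with Sox10, their defining factor, at 5, 3.68 and 4.58 CPM and then at 2.45, 2.52 and 2.7 CPM. Without reloading library 3 the number of Schwann genes called was 10 rather than 5, without reloading library 2 it was 2, and without reloading library 1 or unloading library 1 it was 3. The fat cell genes Adipoq and Lep were highest in reloading library 3 of their group, at 39.5 and 13.8 CPM against 8.75 to 16.1 and 2.45 to 2.82 CPM in the other two. Neither was called, and 0 of 12 fat cell genes rose while 2 fell (7 called without reloading library 3, and 1 without reloading library 1 or 2 or unloading library 1 or 2). In the red cell list 2 of 8 genes rose and 1 fell. Bpgm, which sets the oxygen affinity of haemoglobin, fell by 0.48 ± 0.10, and the abundant beta-globin gene Hbb-bs had 0.52 ± 0.22 and was not called. The alpha-globin gene Hba-a1, which has a near-identical copy that may share its reads, rose by 1.11 ± 0.26, from 15, 12.5 and 15.3 CPM to 25.2, 39.7 and 27.5 CPM.

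In the muscle fibre, adult contractile genes split evenly, with 9 of 37 up, 9 down and a median of 0.13. Skeletal actin Acta1 was at 13829, 19006 and 22200 CPM after unloading and at 27635, 29306 and 31040 CPM after reloading, a range that holds the cage control mean of 29599 CPM. Its log2 fold change was 0.68 ± 0.19 (edgeR adjusted p = 0.0112), and the call was lost without unloading library 1, the lowest (adjusted p = 0.0703). The myosin heavy chains differed: Myh4, of the fastest IIb fibres, had -0.13 ± 0.12 and Myh1 0.21 ± 0.17, neither called, while Myh2, of the oxidative IIa fibres, rose by 1.05 ± 0.29, from 887, 3140 and 2189 CPM to 4291, 4402 and 4154 CPM. Unloading library 1 was also the lowest for Myh2.

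The Z-disc actinins moved in opposite directions. Actn3, found in fast fibres, was at 11928, 11244 and 10508 CPM after unloading and at 4897, 4743 and 5541 CPM after reloading, a fall of 1.15 ± 0.12 on the log2 scale (edgeR adjusted p = 2.15e-06). Actn2, found in all fibres, rose by 1.31 ± 0.26, from 434, 1150 and 777 CPM to 2010, 2073 and 1758 CPM. Per transcript length, Actn3 went from 11148 to 5421 TPM (length-scaled abundance) and Actn2 from 594 to 1594 TPM, so the level of Actn3 was above that of Actn2 in both groups. Actn3 is named here after its values were seen. Mylk2, the skeletal myosin light chain kinase, fell by 1.68 ± 0.12, from 1439, 1378 and 1209 CPM to 393, 400 and 461 CPM, below the cage control mean of 887 CPM.

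Genes of the embryonic and cardiac sarcomere rose in 5 of 9 cases and none fell. Actc1, cardiac actin, was at 88.0, 95.4 and 463 CPM after unloading and at 1510, 1674 and 2186 CPM after reloading, a log2 fold change of 3.05 ± 0.57 (edgeR adjusted p = 0.000494; 4.29 without unloading library 3). Cage controls held 923 CPM of Actc1. Embryonic myosin Myh3 rose by 2.63 ± 0.44, from 2.18, 13.4 and 5.93 CPM to 46.6, 50.8 and 36.1 CPM (3.45 without unloading library 2), with 6.21 CPM in cage controls, whereas perinatal myosin Myh8 had -0.74 ± 0.43 and was not called.

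Genes for strain sensing at the Z-disc rose in 12 of 17 cases with no fall and a median of 1.01. Ankrd1, a titin-binding stretch sensor, went from 10.1, 9.45 and 20.4 CPM to 146, 133 and 102 CPM, a log2 fold change of 3.26 ± 0.39 (edgeR adjusted p = 8.50e-06). Flnc, the actin cross-linker filamin C, rose by 1.52 ± 0.28 and Xirp1, which marks damaged sarcomeres, by 1.63 ± 0.41, from 87.4, 165 and 126 CPM to 478, 429 and 263 CPM. Reloading library 3 was the lowest of its group for Ankrd1, Flnc and Xirp1, and no ranges overlapped. In the membrane repair list 13 of 17 rose and 3 fell, led by Anxa2 (1.29 ± 0.15) and S100a11 (1.26 ± 0.15), which help to patch torn membranes, with Ahnak at -0.38 ± 0.11 and not called without unloading library 1 (adjusted p = 0.0602). Cytoskeleton and adhesion genes rose in 31 of 34 cases and none fell. Tubb6, a tubulin of regenerating fibres and other cells, rose by 1.90 ± 0.16 and Actb, cytoplasmic actin, from 238, 268 and 264 CPM to 445, 540 and 431 CPM. Lcp1, an actin bundler of white blood cells, rose with them by 1.71 ± 0.23.

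Of 22 calcium handling genes 8 fell and 2 rose. Atp2a1, the fast-fibre calcium pump SERCA1, was at 26125, 28147 and 29221 CPM after unloading and at 13373, 15524 and 18028 CPM after reloading, a fall of 0.83 ± 0.14 (edgeR adjusted p = 0.000242). Cage controls were at 25539 CPM, close to the unloading group. Pvalb, the calcium buffer parvalbumin, fell by 0.54 ± 0.14, and Mrln, a micropeptide that inhibits the pump, by 0.84 ± 0.17. Against these, Casq2, the cardiac and slow-fibre calsequestrin, rose from 19.9, 35.7 and 44.3 CPM to 152, 155 and 131 CPM (2.13 ± 0.27), while Sln, sarcolipin, had 0.47 ± 0.33. The channels and pumps of the fibre membrane divided evenly, 4 of 16 up and 4 down. The chloride channel Clcn1 fell by 0.62 ± 0.08 and the potassium channel Kcnj2 by 0.80 ± 0.13.

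Of 21 genes of muscle regeneration, 5 rose and 1 fell. Myog, the differentiation factor myogenin, went from 5.10, 5.69 and 5.99 CPM to 29.5, 23.6 and 17.9 CPM, a log2 fold change of 2.08 ± 0.27 (edgeR adjusted p = 1.48e-05), and Mymk, the fusion protein myomaker, rose by 4.06 ± 0.48. Its partner Mymx was at 0.326, 0.519 and 0.230 CPM after reloading and was not called (adjusted p = 0.0879). The satellite cell factor Pax7 had -0.30 ± 0.21 and Myf5, an early myogenic factor, -0.75 ± 0.21, a fall lost without unloading library 3 (adjusted p = 0.0574). At the neuromuscular junction 4 of 15 genes rose and none fell. The fetal acetylcholine receptor subunit Chrng rose by 2.44 ± 0.54 to at most 0.704 CPM, and Chrna1, the subunit shared by fetal and adult receptors, from 20.1, 17.8 and 21.1 CPM to 31.6, 38.3 and 36.7 CPM.

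**Figure D3:**
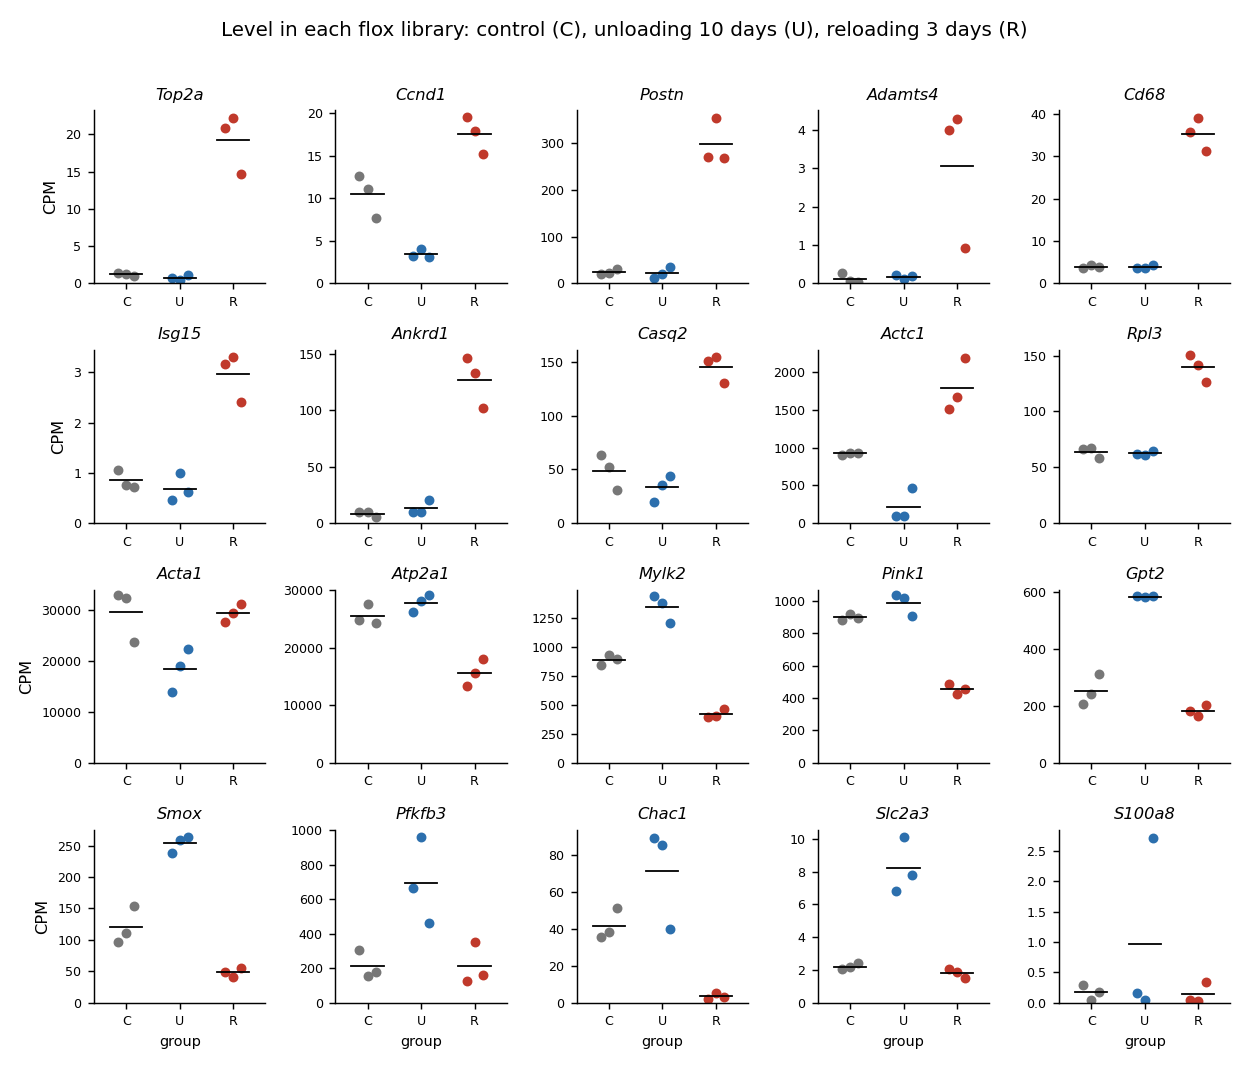
CPM in each flox library for 20 genes, in control (C), unloading (U) and reloading (R), with a bar at each group's mean; axes start at 0. The reloading points lie apart from the unloading points in each panel except S100a8, where unloading library 3 alone was high.

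In the list for glycolysis and glycogen, 13 of 32 members fell, 6 rose and the median was -0.13. The falls included Slc2a3, Pfkfb3 and Aldoa and, named after their values were seen, Phka1, Phkb and Phkg1 (subunits of phosphorylase kinase), Pygm (muscle glycogen phosphorylase), Gyg (which primes glycogen synthesis) and Pfkfb1, Pfkm, Gpi1 and Pkm of glycolysis. The 6 rises were Hk3, a hexokinase of white blood cells (1.46 ± 0.32), and, also named after their values were seen, Hk1, Pfkp, Pgam1, Ugp2 and Pgam2. Slc2a3, the glucose carrier GLUT3, went from 6.83, 10.1 and 7.78 CPM to 2.04, 1.87 and 1.53 CPM, a fall of 2.18 ± 0.17 (edgeR adjusted p = 1.88e-07), and cage controls held 2.20 CPM. Pfkfb3, which makes the activator of phosphofructokinase, was at 665, 960 and 462 CPM and then at 123, 350 and 157 CPM (-1.73 ± 0.39, or -2.32 without reloading library 2), with 213 CPM in cage controls. For both genes each unloading library was above the control mean. After reloading, the Slc2a3 libraries were slightly below that mean and the Pfkfb3 libraries lay on both sides of it. These differences from controls were not tested. The main insulin-regulated carrier Slc2a4 had -0.09 ± 0.08 and Hk2, the muscle hexokinase, -0.03 ± 0.11. Aldoa, aldolase, fell by 0.53 ± 0.11 from 13773, 14141 and 13849 CPM to 9258, 9493 and 10104 CPM, and Ckm, muscle creatine kinase, by 0.42 ± 0.09.

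Of 50 nuclear genes of the respiratory chain 8 fell, a share near the 14.9% of all genes, 3 rose, a share below 17%, and the median was -0.08 (0.03 with total-count scaling). Cox8b, a muscle subunit of cytochrome oxidase, fell by 0.65 ± 0.09, from 148, 155 and 145 CPM to 94.3, 98.8 and 92.4 CPM, while Cycs, cytochrome c, rose by 0.42 ± 0.09. Among genes of the mitochondrial genome 4 of 13 fell and none rose (2 of 13 called without any of 4 single libraries), with mt-Nd2 at -0.44 ± 0.11. In the citrate cycle list 3 of 23 rose and 3 fell, and in fatty acid oxidation 1 of 26 rose and 3 fell; the medians were -0.06 and -0.01, and 0.05 and 0.10 with total-count scaling. Slc27a1, a fatty acid carrier, fell by 1.08 ± 0.13, and Fabp3, the heart-type fatty acid binding protein, rose by 0.94 ± 0.22. Ppargc1a, a master regulator of mitochondrial genes, had -0.05 ± 0.11, and its relative Ppargc1b rose from 11.4, 10.5 and 8.99 CPM to 18.8, 18.1 and 16 CPM (0.77 ± 0.12).

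Polyamine and cholesterol genes moved in both directions. Smox, which oxidises spermine, was at 238, 258 and 264 CPM after unloading and at 49.4, 41.5 and 55.2 CPM after reloading, a fall of 2.38 ± 0.17 (edgeR adjusted p = 7.08e-08), with 120 CPM in cage controls. Odc1, the first enzyme of polyamine synthesis, rose by 0.53 ± 0.14, and Azin1, which shields it from degradation, from 50.3, 56.9 and 54.2 CPM to 129, 124 and 110 CPM (1.17 ± 0.17). In all 3 of 12 polyamine genes rose and 5 fell. In the cholesterol list 11 of 24 rose and 3 fell. Sqle, squalene epoxidase, rose by 0.92 ± 0.25 while Fdft1, squalene synthase, fell by 0.85 ± 0.10. Iron and redox genes rose in 8 of 20 cases and fell in 5, but 6 were called without reloading library 2 and 7 without unloading library 1. Slc40a1, the iron exporter ferroportin, fell by 1.13 ± 0.12, and Tfrc, the transferrin receptor, rose by 1.03 ± 0.27, from 175, 182 and 358 CPM to 482, 446 and 529 CPM.

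Autophagy genes fell in 17 of 26 cases and none rose, with a median of -0.46, and 16 were called without any 1 of the 6 libraries. Pink1, the kinase that marks damaged mitochondria, went from 1036, 1016 and 905 CPM to 486, 424 and 457 CPM, a fall of 1.11 ± 0.09 (edgeR adjusted p = 2.59e-07), and Map1lc3a, of the LC3 family that coats autophagosomes, fell by 1.09 ± 0.09. Sqstm1, the cargo receptor p62, fell by 0.65 ± 0.14 and Gabarapl1, another LC3 relative, had -0.27 ± 0.13. Cage controls held 898 CPM of Pink1, so the reloaded muscle was below control as well. In the list of ubiquitin ligases and FoxO factors 9 of 22 fell and none rose. Foxo4 fell by 1.17 ± 0.09, from 287, 301 and 267 CPM to 139, 114 and 127 CPM. Fbxo32, the ligase atrogin-1, had -0.76 ± 0.24 and was not called without unloading library 2 or reloading library 3 (adjusted p = 0.133 and 0.0899), and Trim63, MuRF1, had -0.21 ± 0.08 (adjusted p = 0.0555). Of the proteasome subunits 7 of 36 rose and 6 fell, shares near the 17% and 14.9% of all genes, and 13 in all became 7 without reloading library 2 and 8 without unloading library 1 or 2. Those that rose included the interferon-induced Psmb10 (0.53 ± 0.11).

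Known targets of the glucocorticoid receptor fell in 9 of 15 cases and none rose, with a median of -0.59. Fkbp5, a co-chaperone of that receptor, was at 63.8, 71.3 and 144 CPM after unloading and at 20.9, 17.4 and 15.3 CPM after reloading, a fall of 2.38 ± 0.29 (edgeR adjusted p = 9.46e-06), and cage controls held 20.4 CPM. The number called was 4 without unloading library 1, 5 without unloading library 2 and 4 without reloading library 2. Tsc22d3 and Zbtb16, targets of the same receptor, had -0.26 ± 0.22 and -0.59 ± 0.41 and were not called.

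The clock list fell in 12 of 19 cases with none up and a median of -0.61. Arntl, a core activator of the clock, was at 5.50, 6.54 and 5.41 CPM and then at 19.8, 15.9 and 5.58 CPM, and Per2, a repressor of it, at 43.0, 36.9 and 39.5 CPM and then at 12.1, 12.1 and 31.9 CPM. In both, reloading library 3 stood at or near the unloading level while libraries 1 and 2 were together, and neither gene was called. The number of clock genes called was 15 without reloading library 3, and 5, 5, 6 and 8 without reloading libraries 1 and 2 and unloading libraries 1 and 3. The hour at which muscles were taken is not given in the sources used here, and its part in these values was not tested.

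Targets of the stress factor ATF4 divided, with 6 of 27 up and 7 down. Gpt2, which makes alanine from glutamate, was at 584, 579 and 584 CPM after unloading and at 181, 163 and 201 CPM after reloading, a fall of 1.68 ± 0.13 (edgeR adjusted p = 1.58e-07), with 252 CPM in cage controls. Atf3, an injury-induced factor, rose by 3.01 ± 0.60, from 3.01, 4.80 and 5.33 CPM to 49.0, 37.4 and 19.4 CPM. The amino acid enzymes Pycr1, Psat1 and Aldh18a1 also rose, at log2 fold changes of 1.25, 1.26 and 1.15; these 3 are named after their values were seen. Asns and Ddit3, classical targets of the same factor, had 0.26 ± 0.19 and 0.10 ± 0.19. Aminoacyl-tRNA synthetases fell in 6 of 20 cases and none rose, led by Mars (-0.59 ± 0.07).

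Of 42 ribosomal protein genes 6 rose and 4 fell, between 4 and 6 of them called without any single library. Their median was 0.01, but Rpl3 stood out: it was at 61.9, 60.8 and 64.6 CPM after unloading and at 150, 141 and 127 CPM after reloading, a log2 fold change of 1.16 ± 0.12 (edgeR adjusted p = 2.72e-06). Rpl3l, the muscle-specific paralog that takes its place in the ribosome of mature fibres, fell from 471, 469 and 434 CPM to 371, 333 and 385 CPM (-0.34 ± 0.08). Per length, Rpl3l went from 801 to 685 TPM and Rpl3 from 56.4 to 136 TPM, so Rpl3l remained the more abundant of the pair. Of 32 ribosome assembly genes 4 fell and none rose, both below the shares of all genes (14.9% and 17%), and only 1 or 2 were called without unloading libraries 1, 2 or 3 or reloading libraries 2 or 3.

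Chaperones rose in both compartments. In the heat shock list 16 of 20 rose and none fell (median 0.66), with Hspb1, a small heat shock protein, going from 39.2, 59.4 and 54.9 CPM to 282, 247 and 172 CPM (2.19 ± 0.28, edgeR adjusted p = 1.37e-05) and Hspb6 rising by 1.67 ± 0.21. Hspa1a, the inducible HSP70, had 1.01 ± 0.54 and Unc45b, the myosin chaperone, -0.05 ± 0.08, neither called. In the endoplasmic reticulum 17 of 26 chaperone and export genes rose and 2 fell (median 0.54). Hspa5, the main chaperone BiP, rose by 0.59 ± 0.15 and Kdelr3, which returns escaped chaperones, by 1.44 ± 0.20, from 3.17, 2.71 and 2.08 CPM to 7.36, 8.63 and 5.56 CPM, while Herpud1, of the pathway that degrades misfolded proteins, fell by 0.67 ± 0.14. Metallothioneins rose as well, Mt1 from 8.15, 11.3 and 10.5 CPM to 22.6, 21.2 and 14.4 CPM (0.96 ± 0.22) and Mt2 by 1.99 ± 0.38.

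Among growth signals, insulin-like growth factors rose and myostatin did not change detectably. Igf1 went from 35.6, 38.8 and 28.5 CPM to 47.9, 74.4 and 60.2 CPM, a log2 fold change of 0.83 ± 0.17 (edgeR adjusted p = 0.00147), and Igf2 rose by 1.03 ± 0.27. Mstn, myostatin, the brake on muscle growth, had 0.01 ± 0.13, and its antagonist Fst -0.09 ± 0.14. Tgfb1 rose by 1.04 ± 0.16, Fstl1, a secreted glycoprotein, by 1.85 ± 0.13 from 68.2, 68.2 and 75.2 CPM to 246, 298 and 219 CPM, and Ltbp2, a matrix protein related to those that hold TGF-beta, by 1.97 ± 0.30. Acvr1b, an activin and myostatin receptor, fell by 1.13 ± 0.27, from 128, 123 and 158 CPM to 41.0, 57.0 and 88.7 CPM. In this list 13 of 37 rose and 8 fell. Other growth factors rose in 12 of 27 cases and fell in 1 (8 called in all without reloading library 2), with Csf1, which sustains macrophages, at 0.64 ± 0.09.

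Immediate early genes rose in 7 of 24 cases and none fell (11 without unloading library 2). Egr1 was at 6.94, 9.22 and 11.2 CPM after unloading and at 26.2, 53.1 and 30.1 CPM after reloading, a log2 fold change of 2 ± 0.34 (edgeR adjusted p = 0.000219), and Egr3, induced in muscle spindles and by growth factors, rose by 2.68 ± 0.37. Fos had 1.18 ± 0.39 and was not called without unloading libraries 1 or 3 or reloading library 2 (adjusted p = 0.126, 0.0958 and 0.131), and Myc had 0.35 ± 0.31. Targets and partners of YAP and SRF rose in 6 of 22 cases and fell in 1. Tead4, a DNA-binding partner of YAP, rose by 0.95 ± 0.21, while the YAP targets Ccn1 and Ccn2 had 0.68 ± 0.26 and 0.48 ± 0.25, neither called, although their group ranges were separate.

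**Figure D4:**
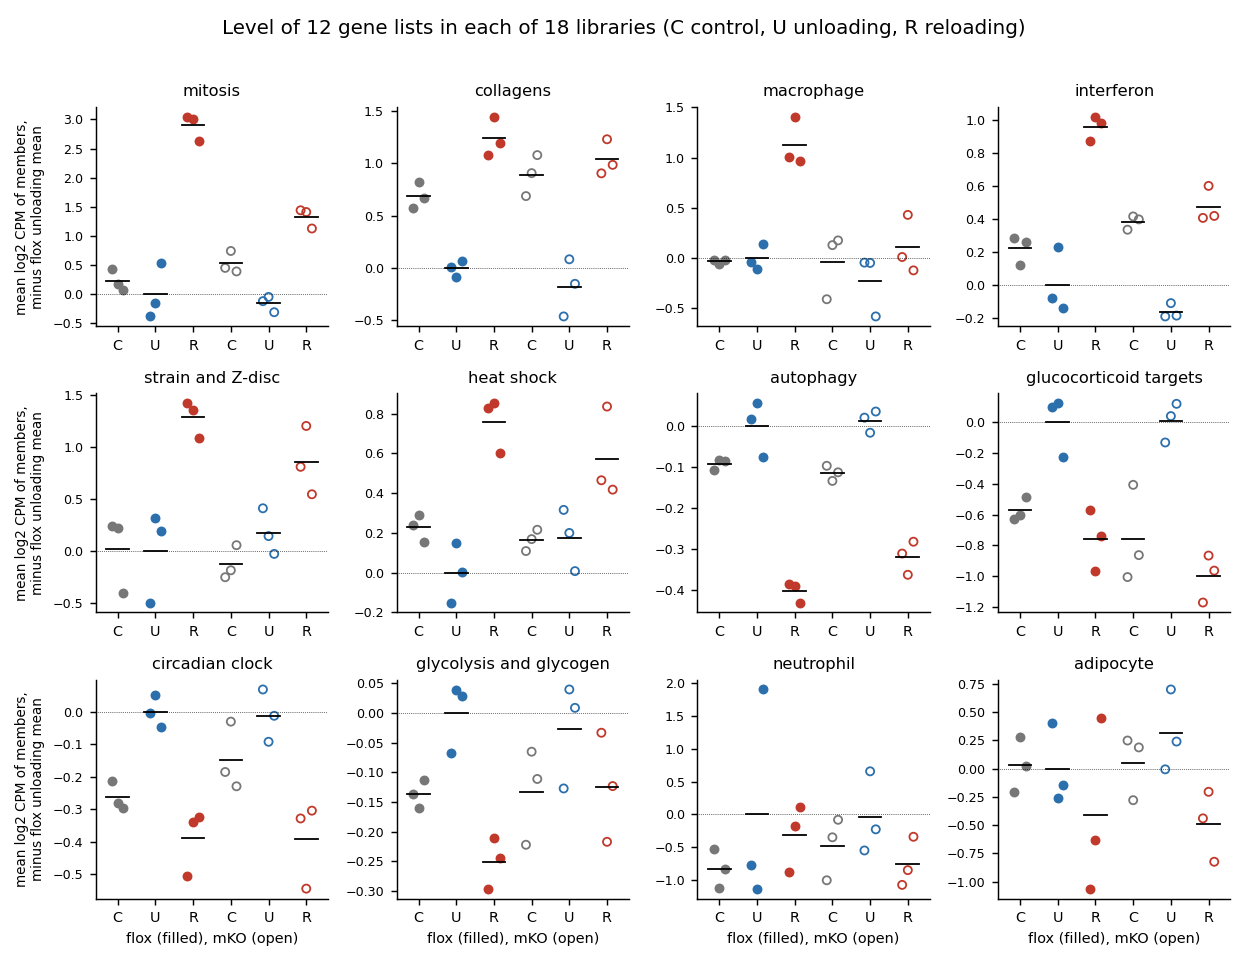
Mean log2 CPM of the tested members of 12 gene lists in each of the 18 libraries, minus the flox unloading mean; filled points are flox and open points mKO libraries, and bars are group means. In flox the reloading points stand apart from the unloading points for mitosis, collagens, macrophage, interferon, strain, heat shock, autophagy, glucocorticoid target, clock and glycolysis genes, and not for neutrophil or fat cell genes.

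The same contrast in the libraries labelled mKO gave 1699 genes up (9.53% of those tested) and 1571 down (8.81%). It shares no library with the flox contrast. Of the 5692 genes called in flox, 5381 (94.5%) had the same sign in mKO. The same-sign share over all tested genes was not computed. The median mKO log2 fold change was 0.41 over the flox genes that rose and -0.31 over those that fell. These genes were selected by their flox values, so their flox and mKO medians do not compare the size of the 2 responses. For the lists, mitosis had a median of 3.25 in flox and 1.54 in mKO, macrophage genes 1.14 and 0.28, collagens 1.31 and 1.24, and autophagy genes -0.46 and -0.37. Some lists had the larger median in mKO. Tendon genes had 0.21 in flox and 0.87 in mKO, red cell genes 0.41 and 1.07, and glucocorticoid targets -0.59 and -0.82. Schwann genes had -0.52 and 0.21. A test of the difference itself, the interaction of genotype and reloading, called 0 of 17833 genes (0%) in edgeR's quasi-likelihood test, with 1873 at an unadjusted p under 0.05, and 144 in DESeq2. The smallest adjusted p was 0.0671, shared by several genes. The 5 genes with the smallest p were Carhsp1, Anln, Ptgs2, Incenp and Lbh. Ptgs2, the inducible cyclooxygenase COX-2, had 3.57 ± 0.47 in flox, from 0.288, 0.248 and 0.511 CPM to 2.26, 6.41 and 3.85 CPM, and -0.11 in mKO. Anln, a scaffold of the cleavage furrow, had 1.13 ± 0.16 and -0.14, and Carhsp1, an RNA-binding cold shock protein, 0.66 ± 0.08 and -0.05. None of these differences passed the threshold in edgeR's quasi-likelihood test on all 18 libraries, and neither equality nor difference of the 2 responses is shown by that.

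**Figure D5:**
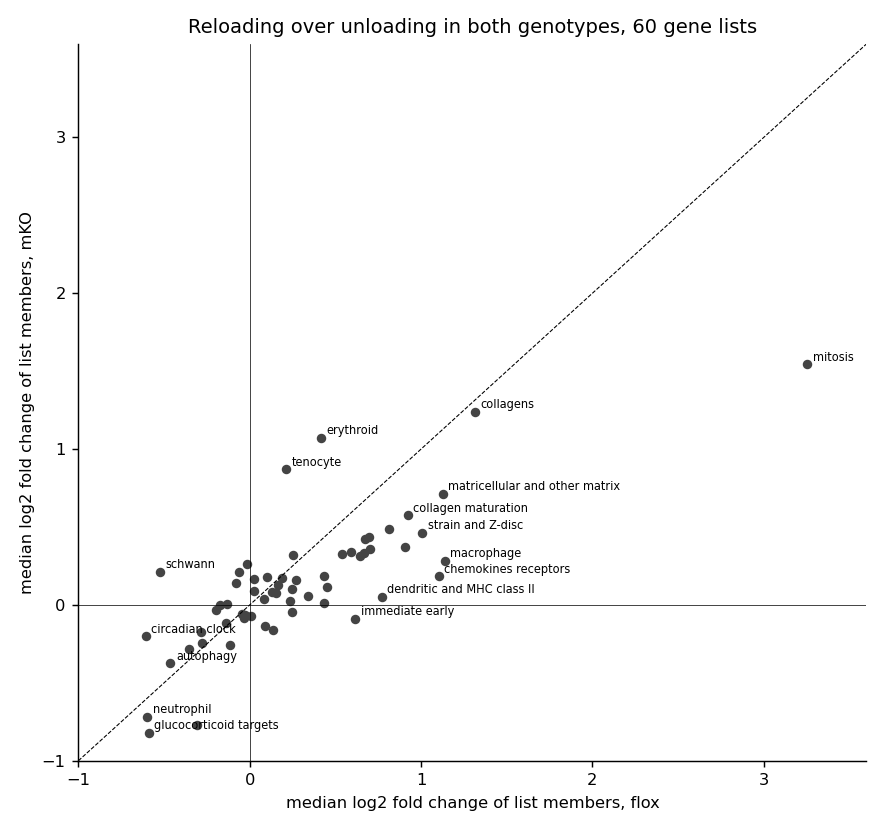
Median log2 fold change at reloading of the tested members of 60 gene lists, flox on the horizontal and mKO on the vertical axis, with a dashed line of equality. Mitosis (3.25 and 1.54) and macrophage genes (1.14 and 0.28) lie below the line and collagens (1.31 and 1.24) close to it. Tendon genes (0.21 and 0.87) and red cell genes (0.41 and 1.07) lie above it. For the difference between genotypes, edgeR's quasi-likelihood test called 0 genes and DESeq2 144.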

How the data were processed

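Per the labels' protocols, RNA from gastrocnemius was extracted with Trizol, enriched for poly-A and made into stranded libraries. The deposited table holds raw read counts per Ensembl gene for 18 libraries. Per the submitters' processing notes the tools were STAR 2.7.3a and featureCounts 2.0.3 and the build GRCm38.p6; the file header names version 1.6.4 and Ensembl release 94, and shows no strand option. Counts of overlapping and antisense genes may therefore not be fully separate. How reads of near-identical genes were assigned was not checked. The gene name table gave a symbol for 54409 of the 54532 identifiers. The authors' own comparison tables were not used.

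Counts were filtered with filterByExpr and scaled by TMM in edgeR 4.0.16 (R 4.3.3, limma 3.58.1), and a quasi-likelihood model of 6 groups (12 residual degrees of freedom) was fitted to all 18 libraries. Contrasts were flox reloading minus unloading, the same in mKO, and their difference. Cage controls were given as levels, and no difference from them was tested. The threshold was an adjusted p of 0.05 (Benjamini-Hochberg, all 17833 tested genes together). CPM are TMM-scaled, and TPM use the table's gene lengths. SE are of log2 fold changes and were derived from the test. Each is the absolute log2 fold change divided by the square root of the quasi-likelihood F statistic. On simulated counts the model was tested with known changes before use. Replicate libraries differed by more than sampling noise in each pair. Same-numbered libraries did not deviate together (correlations of -0.0251 to 0.0687 in flox), so the numbers were not used as pairs.

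Described genes are Zfp697, the 12 largest rises and falls (mean of at least 1 CPM in a group, separate ranges, no unnamed models or pseudogenes), up to 2 leading and 1 opposing member and preset core members of each of 60 gene lists with 1394 symbols, the most abundant genes and the 5 smallest interaction p-values. The members and lists were chosen with earlier results of these data known. Alternatives were other scalings and filters, a replicate block, a model of only the groups compared, DESeq2 1.42.0 and leaving out single libraries. The depth was 45069595 to 51592566 counts per library. Intervals cover counting error only, at 95%. Some genes that the rule names are not reported here.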

Additional observations from a re-analysis of the deposited data

How the results depend on the processing

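The total number of genes called in flox (5692) stayed within 1.5 times of that under each alternative run. It was 5687 with RLE scaling, 5556 with total counts and 5578 with no filter. Of 13852 genes with at least 1 CPM in 3 libraries, 5480 were called. The total was 4977 in a model of the 2 flox groups, 5859 in DESeq2, and 4274 to 5163 with 1 flox library left out. The split by direction was less stable. Total-count scaling called 3987 genes higher and 1569 lower, against 3032 and 2660 with TMM. The replicate numbers did not pair the libraries; with a replicate block the count was 5822 in flox, 3454 in mKO and 10 for the difference between genotypes. The mKO count of 3270 was 2048 in a model of only the mKO groups and 2060 to 3266 with 1 mKO library left out (2060 without unloading library 1, 2130 without unloading library 3). The difference between genotypes had 0 calls, 564 with no low-count filter, 144 in DESeq2 and 0 to 100 with 1 library left out (100 without mKO reloading library 2, 3 without mKO unloading library 3); the cause was not tested. Of 236 called genes among the 305 described by rule, 194 passed without each single flox library, 191 passed under every alternative and 0 reversed. Total-count scaling moved 31 of 60 list medians by more than the spread of the list's level between libraries of a flox group. It changed the sign of 6, each within 0.1 of 0 under TMM (respiratory chain, citrate cycle, fatty acid oxidation, ribosome assembly, ATF4 targets and proteasome). RLE moved 0 medians by more than that spread and changed the sign of 0. Depth limits cytokine and lymphocyte genes below 1 CPM.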
